A study of Mus musculus with 11 samples.

Results

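The 9 genes described are known to be induced by interferons and were followed in hippocampal RNA, chosen by name: the guanylate-binding protein genes Gbp2, Gbp3, Gbp4 and Gbp7, and the interferon-response genes Ifit1, Ifit3, Isg15, Irf7 and Ifi27. They are 9 of the 48709 genes in the deposited count tables, and all 9 were among the 17293 genes with enough counts to test. RNA came from the CA1 field of the hippocampus of mice aged 3 months, dissected under a microscope, and the 11 libraries comprise 6 of CamkdeltaC transgenic animals and 5 of littermates used as controls. CamkdeltaC is one splice product of the kinase gene Camk2d, and as background the line is known for a promoter of heart muscle and for failing hearts, although the labels do not name the promoter. The labels name no other allele or agent and say that males and females were included, without the sex of each library. Whether every library is an animal of its own is not stated either, and if it is not, each p-value reflects a spread among libraries that may be technical. In bulk tissue, fewer cells of a type and less RNA per cell cannot be told apart.

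Interferons are secreted proteins that bind cell-surface receptors and act through JAK kinases and STAT transcription factors. Type I interferons drive genes with an interferon-stimulated response element (ISRE) in the promoter, such as the Ifit genes, Isg15 and Irf7, whereas interferon gamma acts mainly at gamma-activated sites (GAS) and is the classic inducer of guanylate-binding proteins. Guanylate-binding proteins and the related immunity-related GTPases attack the vacuoles in which intracellular microbes live, and in brain they are made by glia and vessel cells as well as by infiltrating immune cells.

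The promoters are shown because they hold the elements through which interferons reach these genes. RefSeq promoter entries (build GRCm38.p6, from 250 bases before to 50 bases after the start of the gene) were found for 7 of the 9 genes, and not for Gbp4 and Ifi27. Each window below runs 5′ to 3′ on the strand of the gene, and capitals mark the ISRE core, which is GAAA, any 2 bases and GAAA again, or its reverse complement, with overlapping matches joined.
Gbp2, chr3:142620579-142620638, plus strand: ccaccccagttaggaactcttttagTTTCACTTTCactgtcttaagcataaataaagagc
Gbp3, chr3:142559974-142560039, plus strand: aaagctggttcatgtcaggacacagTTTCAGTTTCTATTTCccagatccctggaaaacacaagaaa
Gbp7, chr3:142530258-142530317, plus strand: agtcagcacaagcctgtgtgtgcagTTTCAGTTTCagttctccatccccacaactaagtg
Ifit1, chr19:34640760-34640838, plus strand: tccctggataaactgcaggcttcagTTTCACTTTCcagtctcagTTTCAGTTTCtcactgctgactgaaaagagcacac
Ifit3, chr19:34583348-34583441, plus strand: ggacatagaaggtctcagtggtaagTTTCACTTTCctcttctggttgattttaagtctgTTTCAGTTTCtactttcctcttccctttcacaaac
Isg15, chr4:156200850-156200921, minus strand: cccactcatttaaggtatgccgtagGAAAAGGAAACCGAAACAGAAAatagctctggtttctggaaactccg

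The ISRE core was searched on both strands, together with the palindromic GAS letters TTCNNNGAA. Of 32817 RefSeq promoters of the same length, 1126 (3.43%) held the ISRE core, 2722 (8.29%) held the GAS letters and 148 (0.451%) held both. The ISRE core was present in 6 of the 7 genes with an entry, in Gbp2, Gbp3, Gbp7, Ifit1, Ifit3 and Isg15. The window of Irf7 held no match, nor did that of the second annotated start of Gbp3. In the guanylate-binding genes the core lay close to the start, at positions -59 to -50 in Gbp2, -45 to -30 in Gbp3 and -53 to -44 in Gbp7. It lay farther out in Ifit3, from -156 to -113, and Isg15 held overlapping copies from -78 to -57. The GAS letters were found in Gbp7 alone among these promoters, at -106 to -98 and -87 to -79, and did not overlap its ISRE core. A match describes these letters and is not evidence of binding.

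**Figure D1:**
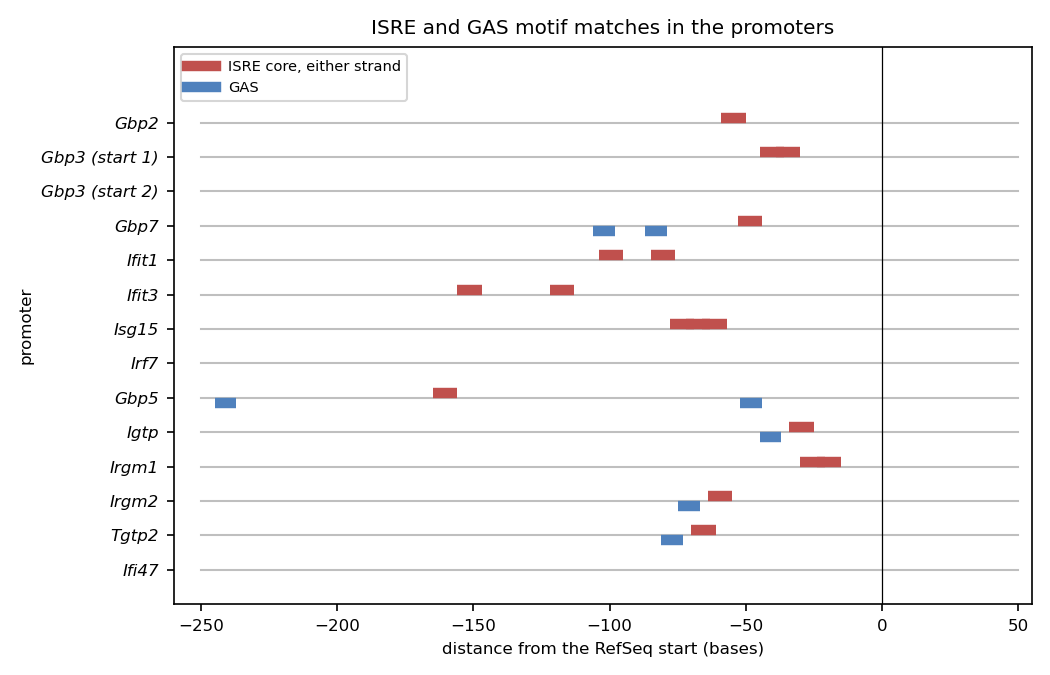
Positions of ISRE core and GAS letters in RefSeq promoters, in bases from the start of the gene (x axis), 1 line per promoter of the members and of related GTPase genes. Matches to the ISRE core (red) cluster within 160 bases of the start in Gbp2, Gbp3, Gbp7, Ifit1, Ifit3 and Isg15, and GAS letters (blue) lie just upstream of the ISRE core in Igtp, Irgm2 and Tgtp2.

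Total counts per library ranged from 14263784 to 36898689, and the shallowest library was control 5. The CA1 pyramidal markers Wfs1, Fibcd1, Pou3f1 and Mpped1 were present in every library. Wfs1 held 302.5 to 373 CPM (counts scaled to the size of the library) in transgenic and 142 to 330.3 CPM in control libraries, and Mpped1 442 to 526.5 and 348 to 444 CPM. Markers of CA3 and the dentate gyrus summed to 87.6 to 181 CPM in transgenic and 95.8 to 254 CPM in control libraries. Camk2d, the gene of the transgene, was not raised in the transgenic libraries as a group, at 41.4, 40.4, 47.3, 92.2, 54.0 and 132 CPM in transgenic 1 to 6 and 53.7 to 94.3 CPM in controls (log2 fold change -0.08, edgeR adjusted p = 0.873), so its level in CA1 does not check the genotype labels. Transgenic 5 stood apart in the check of sex-linked genes: it held Xist at 0.731 CPM and no count of Ddx3y, whereas each of the other 10 libraries was high in 1 of the pair. Values without it are given where a result rests on it. Across all genes, edgeR's quasi-likelihood test with Benjamini-Hochberg adjustment called 3094 genes (17.9%), 1812 (10.5%) lower and 1282 (7.41%) higher in transgenic libraries. When the trend of each library's values with the GC content of genes was removed, 342 genes (1.98%) were called, 0.821% of genes lower and 1.16% higher.

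Of the 4 guanylate-binding genes, 3 were lower in transgenic CA1 by edgeR, and 0 of 4 with the GC trend removed. Gbp2, Gbp4 and Gbp7 fell, by 0.85, 1.46 and 0.74 on the log2 scale, and Gbp3 had an estimate of -0.60 that did not pass. Among the other members Ifi27 rose by 0.29, and Ifit1, Ifit3, Isg15 and Irf7 did not pass the test. In all, 4 of 9 members were called (3 lower, 1 higher), against the 17.9% of all genes given above. DESeq2 called 5 of 9, with Gbp3 in addition, against 23.1% of all genes, and edgeR with the replicate number as a block also called 5, against 26.6%. In none of the 9 did the groups separate completely, while 4.73% of all genes had every transgenic library below every control and 3.04% every transgenic library above.

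Gbp2 (ENSMUSG00000028270, mm10 chr3:142620602-142638008, plus strand, protein coding) encodes a guanylate-binding GTPase. Its level was 6.81, 4.83, 2.47, 4.09 and 5.75 CPM in controls 1 to 5, and in the transgenic libraries it ran from 1.32 through a median of 2.53 to 4.05 CPM. Control 3 lay among the transgenic libraries, and the other 4 controls lay above all 6 of them. The log2 fold change was -0.85 (SE 0.27, 95% interval -1.42 to -0.28, adjusted p = 0.0427 in edgeR), and a two-sided exact permutation test over the 11 libraries gave p = 0.0281. Such an exact permutation p was under 0.05 for 4 of the 9 members, 3 of them lower, and for 34% of all genes, 17.8% lower.

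Gbp3 (ENSMUSG00000028268, chr3:142560026-142573209, plus strand) lies beside Gbp2 and Gbp7 in a cluster of guanylate-binding genes. Controls 1 to 5 held 5.71, 4.40, 3.34, 4.26 and 6.94 CPM, and the transgenic libraries 2.11 to 4.57 with a median of 3.18. Only controls 1 and 5 exceeded every transgenic library, since transgenic 6 reached 4.57 CPM. Its log2 fold change was -0.60 (SE 0.21, interval -1.05 to -0.16) with an edgeR adjusted p of 0.0600 and an exact permutation p of 0.0325. Without transgenic 6 the edgeR adjusted p was 0.0152, at -0.74, and without control 3 it was 0.0471, at -0.72.

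Gbp4 (ENSMUSG00000079363, chr5:105115767-105139586, minus strand) had the largest difference of the 9 members and the widest spread. It stood at 19.8, 8.48, 2.14, 8.64 and 15.6 CPM in controls 1 to 5, and at 1.61 to 6.08 CPM with a median of 3.45 in transgenic libraries. Control 1 was the highest of all 11 libraries, and control 3 lay within the lower part of the transgenic range. The mean was 3.89 ± 1.67 CPM (SD, n = 6) in transgenic and 10.9 ± 6.87 CPM (SD, n = 5) in control libraries. Gbp4 fell by 1.46 on the log2 scale (SE 0.44, 95% interval of the log2 fold change -2.41 to -0.51, edgeR adjusted p = 0.0377), and the exact permutation test gave p = 0.0758. Gbp4 shares 61 exon bases with Gbp8 and 60 with Gbp9, which are close paralogs, and how reads shared by such genes were counted is unknown, so its counts are uncertain to that extent.

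Gbp7 (ENSMUSG00000040253, chr3:142530342-142550149, plus strand) showed the clearest separation of the 4 guanylate-binding genes. Controls held 8.71, 4.56, 4.70, 6.16 and 6.66 CPM in order of their numbers, and the transgenic libraries ran from 2.86 to 5.57 CPM with a median of 3.33. In Gbp7, 5 of the 6 transgenic libraries were below the lowest control, and transgenic 6, at 5.57 CPM, lay above controls 2 and 3. The log2 fold change was -0.74 (SE 0.20, interval -1.16 to -0.31, edgeR adjusted p = 0.0254, exact permutation p = 0.00866). A pseudogene on the same strand, Gm43802, covers 637 exon bases, or 11.3%, of Gbp7, and reads there cannot be assigned with certainty.

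**Figure D2:**
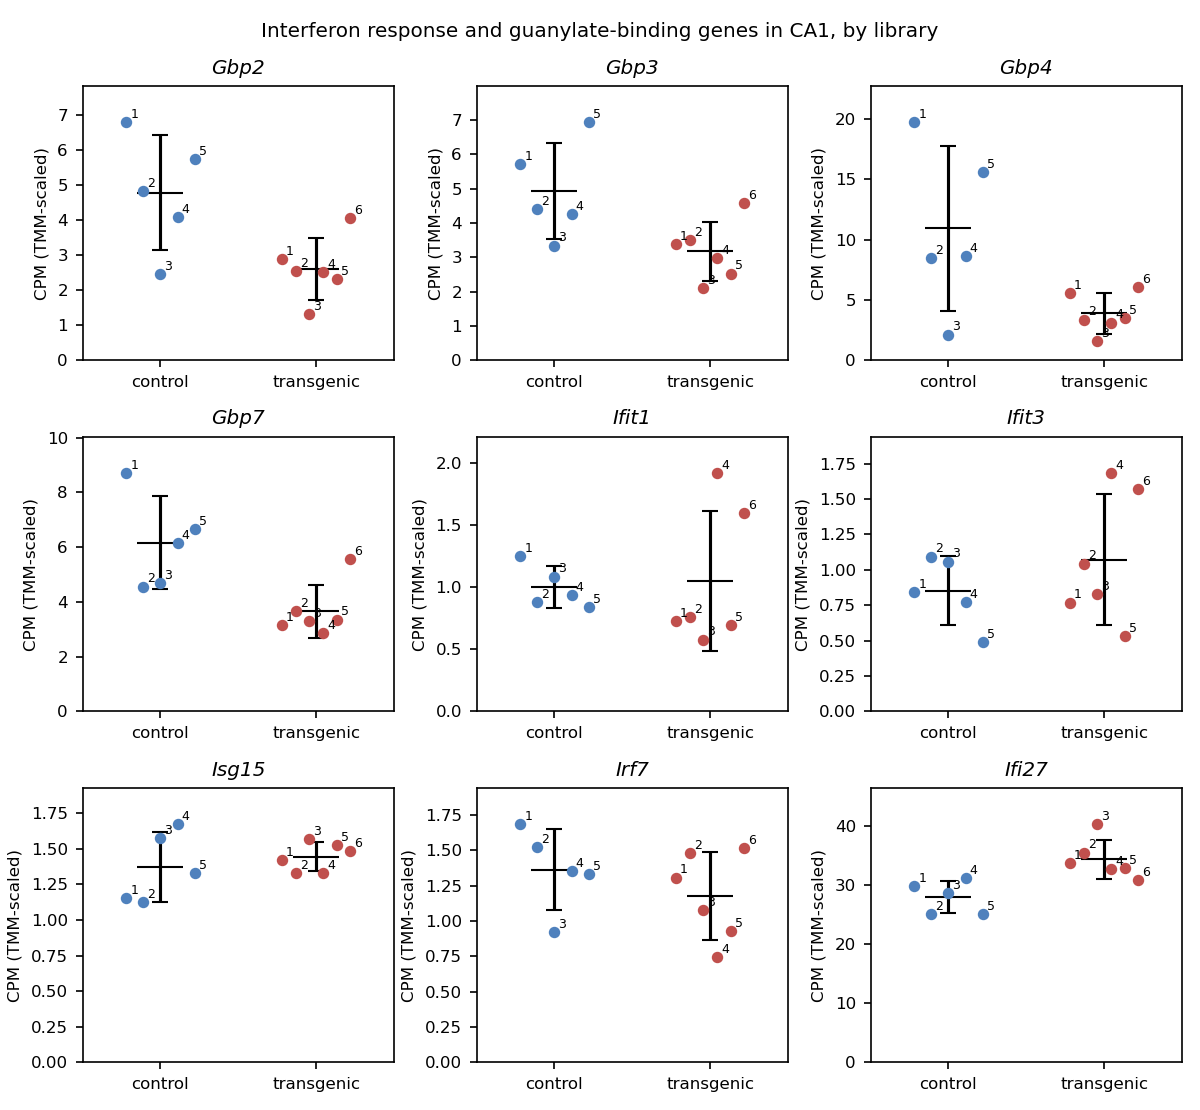
Level of each of the 9 members in CPM (y axis, each panel on its own scale) in the 5 control and 6 transgenic libraries, 1 numbered point per library, with bars for the group mean and SD. The 4 guanylate-binding genes have lower means in transgenic libraries with control 3 low among the controls, and Ifi27 has a higher mean.

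The calls of the guanylate-binding genes depended on single libraries. The number of calls over all genes also moved with the library left out, as given in the last section. How often a called gene lost its call was not computed over all genes, so whether such losses are particular to these genes was not tested. When 1 library was left out at a time and all genes were refitted with edgeR, Gbp2 was called in 2 of 11 fits, without transgenic 6 (-1.03) and without control 3 (-1.02), and its estimate in the 9 other fits was -0.90 to -0.68 with an adjusted p of at least 0.0611. Gbp4 was called in 3 of 11, without transgenic 6, control 2 or control 3, and its estimate ran from -1.74 without control 3 to -1.11 without control 1. Gbp7 was called in 4 of 11, without transgenic 5, transgenic 6, control 2 or control 3, and its estimate ran from -0.91 to -0.57, with an adjusted p of 0.0516 to 0.0621 in the fits that lost the call. Without transgenic 5, the library that stood apart, Gbp2 had an adjusted p of 0.0656 at -0.82, Gbp4 of 0.0558 at -1.43 and Gbp7 of 0.0384 at -0.71, and 2 of the 9 members were called, Gbp7 and Ifi27. The direction was lower in every one of the 11 fits for these 4 genes.

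With the GC trend removed, none of the 9 members was called by edgeR, against 1.98% of all genes, although 5 of 9 had an unadjusted p under 0.05, as did 18.2% of all genes. Gbp2 was then at -0.79 (adjusted p = 0.135), Gbp3 at -0.52 (0.209), Gbp4 at -1.27 (0.150) and Gbp7 at -0.50 (0.176). Of these, the estimate of Gbp7 moved by the most in proportion, and its transcript has the lowest GC content of the 4, at 41.7%, against a median of 49.6% over all genes tested.

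**Figure D3:**
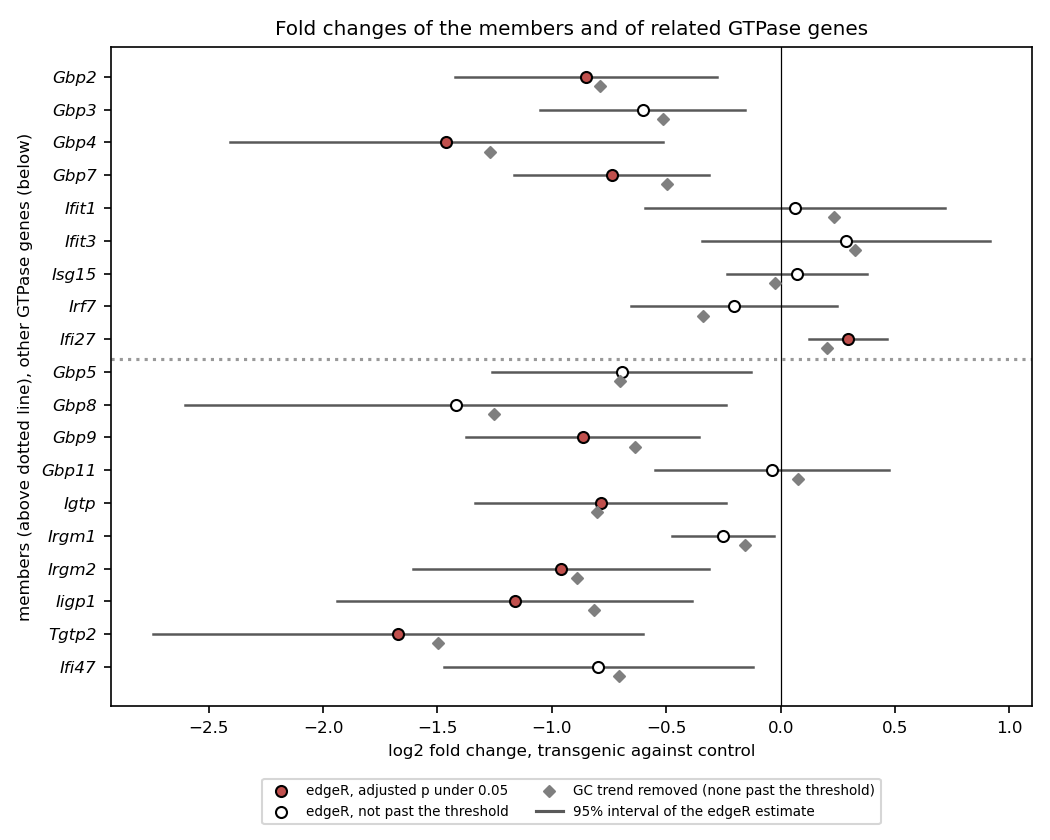
Log2 fold change of transgenic against control (x axis) for the 9 members and 10 related GTPase genes, with 95% intervals; filled circles passed an edgeR adjusted p of 0.05, and grey diamonds are the estimates with the GC trend removed. The guanylate-binding members and most related GTPases lie left of 0, and Ifit1, Ifit3, Isg15 and Irf7 have intervals that span 0.

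Ifit1 (ENSMUSG00000034459, chr19:34640871-34650009, plus strand) encodes a protein that binds viral RNA lacking host cap marks. Controls held 1.25, 0.881, 1.09, 0.935 and 0.841 CPM, and the transgenic libraries 0.579 to 1.92 with a median of 0.743. Transgenic 4 (1.92 CPM) and transgenic 6 (1.60 CPM) lay above every control, and the other 4 transgenic libraries lay below every control. Transgenic 4 and 6 were also the only transgenic libraries with counts of Ddx3y, at 43.0 and 62.6 CPM. Controls 2 and 5, with Ddx3y at 64.3 and 75.6 CPM, were the lowest controls for Ifit1. Whether sex had a part in the split of Ifit1 was not tested. The log2 fold change was 0.06 (SE 0.30, interval -0.59 to 0.72, edgeR adjusted p = 0.907). The sign of Ifit1 was not stable: its estimate was -0.18 without transgenic 4, -0.12 without transgenic 6, 0.18 without transgenic 3, and -0.059 when Xist entered the fit as a covariate. Its neighbour Ifit3 (ENSMUSG00000074896, chr19:34583531-34588731, plus strand), of the same family, held 0.843, 1.09, 1.06, 0.774 and 0.491 CPM in controls and 0.531 to 1.69 CPM, with a median of 0.936, in transgenic libraries. Again transgenic 4 (1.69 CPM) and transgenic 6 (1.57 CPM) were the highest of all 11. The log2 fold change of Ifit3 was 0.29 (SE 0.29, interval -0.34 to 0.92, edgeR adjusted p = 0.517).

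Isg15 (ENSMUSG00000035692, chr4:156199424-156200818, minus strand) encodes a ubiquitin-like modifier. It ranged from 1.33 to 1.57 CPM (median 1.45) in transgenic libraries and was 1.16, 1.12, 1.57, 1.68 and 1.33 CPM in controls. The groups overlapped almost wholly, and the log2 fold change was 0.07 (SE 0.14, interval -0.23 to 0.38, edgeR adjusted p = 0.758). With the GC trend removed it was -0.023. Irf7 (ENSMUSG00000025498, chr7:141262706-141266481, minus strand) encodes the transcription factor that amplifies type I interferon production. Irf7 stood at 1.69, 1.52, 0.923, 1.35 and 1.33 CPM in controls and at 0.745 to 1.51 CPM, median 1.19, in transgenic libraries. The lowest control was control 3, as for Gbp2, Gbp3 and Gbp4. Irf7 had a log2 fold change of -0.20 (SE 0.21, interval -0.66 to 0.25, edgeR adjusted p = 0.522). These 4 genes are sparse, with 7 to 58 counts in a library, and their intervals admit changes of the size seen for Gbp3 in 1 direction or the other, except for Isg15.

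Ifi27 (ENSMUSG00000064215, chr12:103434211-103440239, plus strand) encodes a small interferon-inducible membrane protein. Controls held 29.8, 25.1, 28.6, 31.1 and 25.1 CPM, and the transgenic libraries ran from 30.9 to 40.4 CPM with a median of 33.3. Of the transgenic libraries 5 lay above the highest control, and transgenic 6 lay just under control 4. The rise of 0.29 on the log2 scale (SE 0.08, interval 0.12 to 0.47) had an edgeR adjusted p of 0.0257 and an exact permutation p of 0.00649. Ifi27 was called in 7 of 11 fits with 1 library left out, and not without transgenic 2 (adjusted p = 0.0587), transgenic 3 (0.0550), control 3 (0.0504) or control 5 (0.0644), with estimates from 0.24 to 0.34. With the GC trend removed its estimate was 0.20 (adjusted p = 0.158). Of 15 microglial markers 6 were called higher, against 7.41% of all genes, and 0 with the GC trend removed, when their median went from 0.23 to 0.11. Their summed level was 438 to 581 CPM in transgenic and 394 to 478 CPM in control libraries, and their part in the level of Ifi27 was not tested.

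Per kilobase of exon, Ifi27 was the most abundant member, at a control mean of 19.0 CPM per kb. Gbp2 followed at 1.90, Isg15 at 1.82, Gbp3 at 1.51, Gbp4 at 1.46 and Gbp7 at 1.10 CPM per kb. Ifit3 (0.488), Ifit1 (0.376) and Irf7 (0.361) were lowest. Between Ifi27 and the rest the control libraries did not overlap, at 17.1 to 21.2 CPM per kb for Ifi27 against at most 2.71 for Gbp2, but neighbours from Gbp2 down to Gbp7, and from Ifit3 down to Irf7, overlapped in their ranges.

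The 4 guanylate-binding genes varied together from library to library. Their summed level was 41.0, 22.3, 12.6, 23.1 and 35.0 CPM in controls 1 to 5 and 15.0, 13.1, 8.35, 11.5, 11.7 and 20.3 CPM in transgenic 1 to 6. Controls 1 and 5 were high, control 3 lay within the transgenic range, and transgenic 6 was the highest of its group. Control 3 also had the highest summed level of CA3 and dentate markers of all 11 libraries, 254 CPM, and the highest level of the choroid plexus gene Ttr, 39.5 CPM, and their part in its low guanylate-binding levels was not tested. Over the 11 libraries, Pearson's r of log2 CPM for the 6 pairs ran from 0.79 to 0.96 and Spearman's rho from 0.73 to 0.95. All 6 pairs passed a permutation test of r adjusted over the 36 pairs of members (adjusted p 0.0004 to 0.0241), and 4 of 6 passed by rho. With the 2 libraries farthest from the median left out, r was between 0.66 and 0.93, and without transgenic 5, an alternative chosen after seeing the data, between 0.78 and 0.96. Centred within genotype, r was 0.65 to 0.94 and 3 of the 6 pairs passed, those among Gbp2, Gbp3 and Gbp4 (adjusted permutation p 0.0050 to 0.0211).

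The interferon-response members did not form such a group. Among their 10 pairs r ran from -0.42 to 0.72, and 1 passed, Ifit1 with Ifit3 (r = 0.72, permutation p = 0.0124, adjusted p = 0.0497; rho = 0.69, p = 0.0232, adjusted p = 0.0836). That relation rests on 2 libraries, since r was 0.27 without the 2 farthest from the median. Ifi27 ran opposite to Gbp2 (r = -0.78, permutation p = 0.0047, adjusted p = 0.0243; rho = -0.65, p = 0.0330, adjusted p = 0.0991) and to Gbp3 (r = -0.77, permutation p = 0.0058, adjusted p = 0.0261; rho = -0.67, p = 0.0275, adjusted p = 0.0899). Centred within genotype, r was -0.57 for Gbp2 and -0.55 for Gbp3, and neither passed (adjusted permutation p = 0.257 for both). Without the 2 farthest libraries r was -0.76 for Gbp2 and -0.47 for Gbp3. Irf7 was positively related to the guanylate-binding genes, with r of 0.64 to 0.68 and an adjusted permutation p of 0.0780 to 0.0842, which did not pass, and all 4 of these pairs passed with the GC trend removed (adjusted p 0.0062 to 0.0262).

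**Figure D4:**
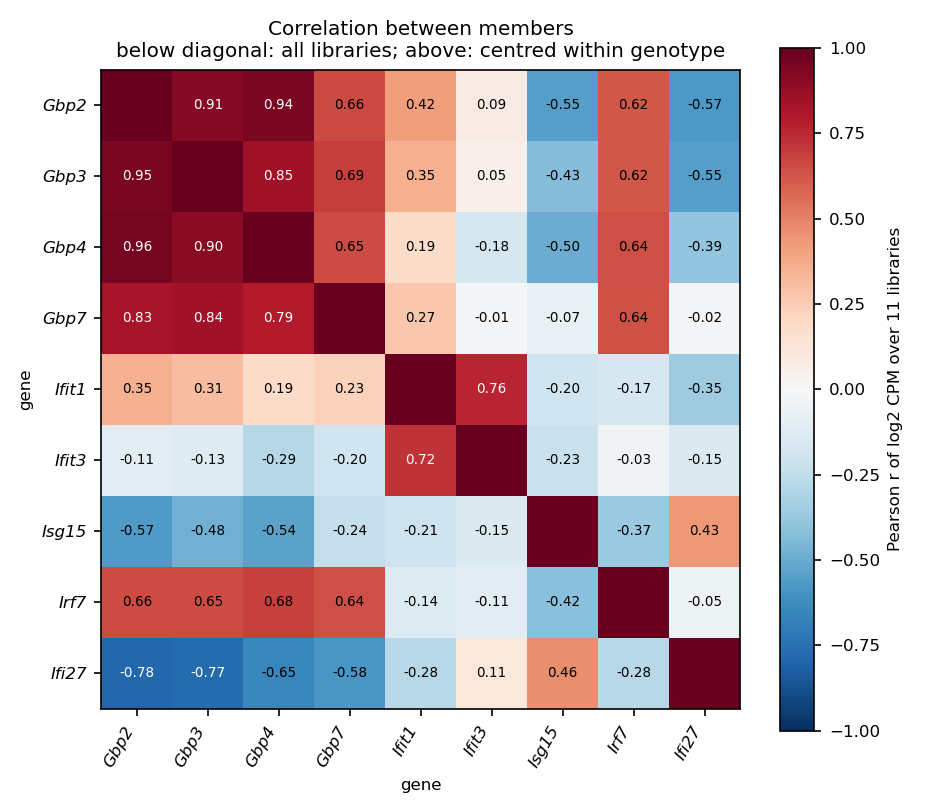
Pearson's r of log2 CPM over the 11 libraries for each pair of the 9 members (colour, from -1 to 1), over all libraries below the diagonal and centred within genotype above it. The block of Gbp2, Gbp3, Gbp4 and Gbp7 is positive throughout, at 0.79 to 0.96 below and 0.65 to 0.94 above the diagonal, and Ifi27 is negative with each of them.

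The genes with the pattern most like each member were ranked by Pearson's r over the 11 libraries among 14534 genes, as a description. For Gbp2 they were Gbp9 (0.971), Irgm2 (0.964) and Gbp4 (0.959). Those of Gbp3 were Irgm2 (0.965), Gbp9 (0.953) and Ifi47 (0.950), and those of Gbp4 were Gbp5 (0.981), Gbp9 (0.972) and Irgm2 (0.960). The nearest genes of Gbp2, Gbp3 and Gbp4 were thus all of the same GTPase families. Gbp7 was nearest to Chmp4c (0.961), Tjp1 (0.943) and Ncoa2 (0.924), none of which is a GTPase of this kind. Irf7 was nearest to the interferon-inducible gene Ifi44 (0.838), Igsf6 (0.831) and Apex2 (0.827). For Ifit1 the nearest were Notum, Dnajb6 and Fstl1 (0.889 to 0.844), for Ifit3 Slc2a4 and Smpdl3b (0.923 and 0.911), for Isg15 Psmd10, Mrps6 and Isg20l2 (0.901 to 0.854), and for Ifi27 Fam174b, Ctu1 and Pisd (0.949 to 0.915).

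Among other guanylate-binding proteins and immunity-related GTPases, 5 of the 10 tested genes were lower and 0 higher in transgenic CA1, against 10.5% of all genes lower, and 0 of 10 were called with the GC trend removed. A further 7 of the 17 such genes had too few counts to test. All 10 had a negative estimate (9 of 10 with the GC trend removed, when Gbp11 was at 0.075), as did 48.5% of all genes, and their median was -0.83 against 0.01 over all genes. The 5 that fell were Gbp9 by 0.87 (edgeR adjusted p = 0.0268), Igtp by 0.79 (0.0484), Irgm2 by 0.96 (0.0428), Iigp1 by 1.16 (0.0414) and Tgtp2 by 1.67 (0.0366). Gbp5 (-0.69, adjusted p = 0.0813), Gbp8 (-1.42, 0.0865) and Ifi47 (-0.80, 0.0910) did not pass, nor did Irgm1 (-0.25) and Gbp11 (-0.04). Gbp9 was called in 6 of 11 fits with 1 library left out, and Igtp, Irgm2 and Iigp1 in 3 of 11, without transgenic 6, control 2 or control 3. Tgtp2 was called in 3 of the 10 fits in which it passed the filter, without the same libraries. Without transgenic 5 only Gbp9 of the 5 kept its call, at -0.84 (adjusted p = 0.0409). With the GC trend removed the median was -0.75, and 8 of 10 had an unadjusted p under 0.05, against 18.2% of all genes. Tgtp2 has a near-identical copy, Tgtp1, and Igtp shares 162 exon bases with Irgm2, so the counts of these genes are uncertain. Tgtp2, the largest of the 5 falls, also rests on few counts, 2 to 10 in transgenic and 6 to 36 in control libraries. DESeq2 likewise called 5 of the 10 genes lower, with Gbp5 among them and without Tgtp2. The authors' deposited table of lower genes lists Gbp9, Igtp, Irgm2 and Iigp1, but not Tgtp2.

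Promoter entries were found for 6 of these 10 genes, and not for Gbp8, Gbp9, Gbp11 and Iigp1. The ISRE core was present in 5 of the 6 and the GAS letters in 4 (Gbp5, Igtp, Irgm2 and Tgtp2), against 3.43% and 8.29% of all promoters. Irgm2, which also fell, had GAS letters at -75 to -67 and the ISRE core at -64 to -55. The bases after the start in the Irgm2 entry matched no annotated transcript of that gene, so its motif positions are less certain. The windows of Igtp and Tgtp2, which have the same arrangement, are shown as examples, with the ISRE core in capitals. Any link between these motifs and the falls was not tested.
Igtp, chr11:58199497-58199555, plus strand: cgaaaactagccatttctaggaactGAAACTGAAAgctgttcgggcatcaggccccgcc
Tgtp2, chr11:49064248-49064307, minus strand: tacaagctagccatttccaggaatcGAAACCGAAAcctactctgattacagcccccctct

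Across these GTPases the same libraries were high and low. Over the 14 genes, the 4 members and the 10 others, control 1 was the highest control for 10 genes and control 5 for 3, and control 3 was the lowest control for 12. Transgenic 6 was the highest of its group for 11 genes and transgenic 3 the lowest for 11. The levels of Gbp9 show this order: 9.21, 5.68, 3.53, 5.29 and 8.69 CPM in controls 1 to 5, and 2.27 CPM in transgenic 3 up to 4.54 CPM in transgenic 6. The order was not confined to GTPases. Of the MHC class I genes, Nlrc5 held 3.75, 2.19, 1.06, 2.51 and 4.35 CPM in controls 1 to 5. H2-Q6 held 2.15, 1.46, 0.679, 1.13 and 1.96 CPM there. Both were lowest in transgenic 3 of their group, but highest in transgenic 1. B2m differed, with control 4 highest (57.6 CPM) and control 2 lowest (49.5 CPM) among controls. Summed endothelial markers were also highest in control 5 (315 CPM) and control 1 (306 CPM) among controls, and transgenic 1, at 328 CPM, was the highest of all 11 libraries. Transgenic 1 held Slc2a1 at 100 CPM, against 60.9 to 77.7 CPM in the other libraries. Flt1 (71.9 and 74.8 CPM) and Slco1a4 (35.8 and 36.8 CPM) were highest in controls 1 and 5. Cldn5 (31.5 CPM) and Tie1 (12.6 CPM) were highest in transgenic 1. Of 12 endothelial markers 1 was called, lower, against 10.5% of all genes lower, and 0 with the GC trend removed. The part of these markers in the order of the GTPases was not tested.

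**Figure D5:**
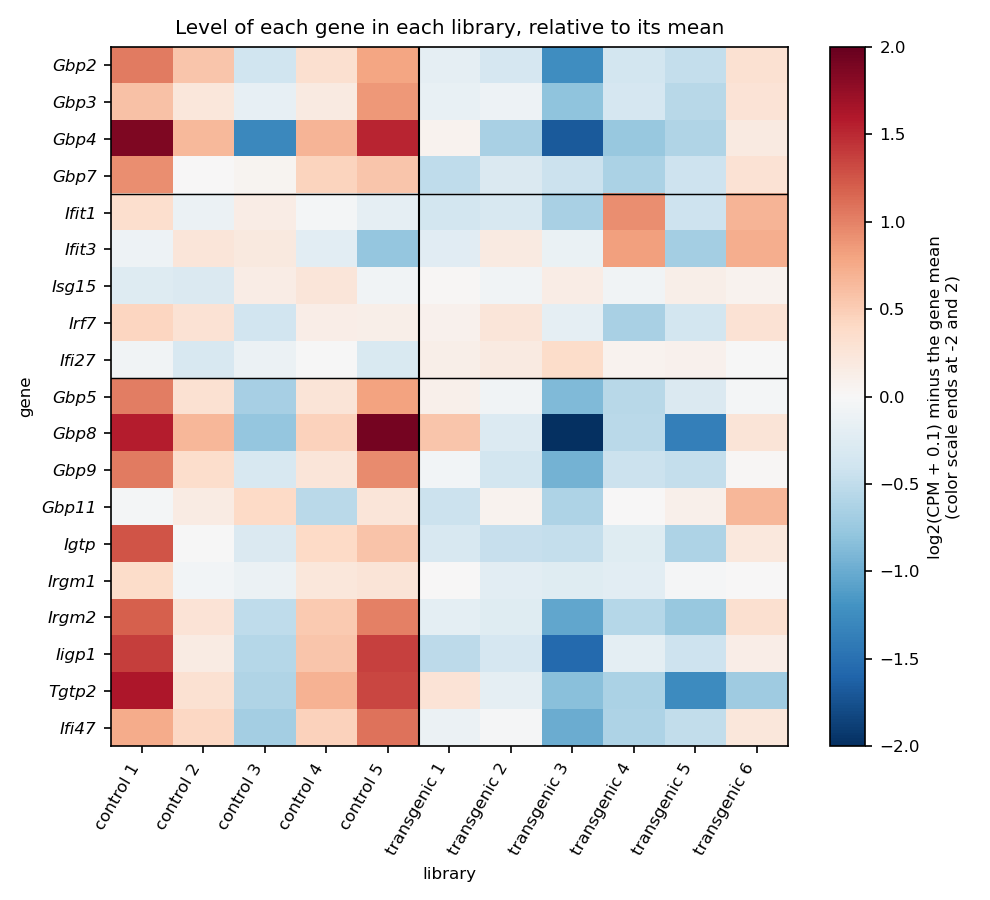
Level of each member and related GTPase in every library, as log2 of CPM plus 0.1 minus the gene's mean over the 11 libraries (colour, ending at -2 and 2), with genes in rows and libraries in columns. Controls 1 and 5 are high across the GTPase genes, control 3 is low among controls for most of them, and of the interferon-response members Irf7 also has control 1 as its highest and control 3 as its lowest control.

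No interferon message was measured at a level that could be tested. Of 11 ligand genes none passed the filter on low counts, and 8, with Ifnb1 and Ifng among them, had 0 counts in every library. A count of 0 allows up to 3 counts, or 0.0813 CPM in the deepest and 0.210 CPM in the shallowest library, for counting error only. The 6 receptor genes were all tested and 0 were called by edgeR, with 0 at an unadjusted p under 0.05 and 0 by DESeq2, and a median of 0.07. The smallest p-values were those of Ifngr1 (0.09), the ligand-binding chain of the interferon gamma receptor, Ifngr2 (0.08) and Ifnar2 (0.04).

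Of the kinases that act directly downstream of the receptors, Jak2 was at -0.13 (edgeR adjusted p = 0.149) and Jak1 at -0.10 (0.155), and neither passed. Jak2 stood at 0.016 with the GC trend removed. Of 15 tested sensors and adaptors of foreign nucleic acid, Mavs, the mitochondrial adaptor of RNA sensing, rose by 0.30 (edgeR adjusted p = 0.0220), against 7.41% of all genes higher, and the other 14 did not pass, with Tbk1 at -0.14 and Tlr9 at 0.33.

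Among 8 inhibitors of the pathway, Pias1, a SUMO ligase that restrains interferon signalling, fell by 0.22 (edgeR adjusted p = 0.0188) and the phosphatase gene Ptpn2 fell by 0.29 (0.0328), against 10.5% of all genes lower, while Ptpn1 (0.26) did not pass. With the GC trend removed Pias1 stood at 0.018 and Ptpn2 at 0.080, on the other side of 0. Of 11 genes of other interferon regulatory factors and IRF2-binding proteins, 3 rose and none fell, against 7.41% of all genes higher and 10.5% lower. The corepressors Irf2bp1 and Irf2bpl, both IRF2-binding proteins, rose by 0.25 (edgeR adjusted p = 0.0152) and 0.22 (0.0400). The type I interferon activator Irf3, the only regulatory factor among the 3, rose by 0.21 (0.0410). Irf2bp1 turned to -0.015 when GC content and length were both removed. None of these 5 calls, nor that of Mavs, held with the GC trend removed. With 1 library left out, Irf3 was called in only 2 of 11 fits, and not without transgenic 5 (edgeR adjusted p = 0.0705). Irf2bpl was called in 4 of 11 such fits, Ptpn2 in 5, Mavs in 8, Pias1 in 10 and Irf2bp1 in 11.

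The wider set of type I interferon-stimulated genes resembled Ifit1, Ifit3, Isg15 and Irf7 in having no called gene. Of 58 such genes 45 were tested, and edgeR called 0, with 5 at an unadjusted p under 0.05, against 34.7% of all genes. DESeq2 called 1, Lgals3bp. The median was -0.01, near the 0.01 of all genes. The smallest p-values belonged to Lgals3bp (0.33, edgeR adjusted p = 0.0702), Trim25 (0.25, 0.0798) and Dtx3l (-0.28, 0.0889). Of 36 with a promoter entry, 13 held the ISRE core.

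Among 19 genes of MHC class I antigen presentation, which interferon gamma is also known to induce, the immunoproteasome subunit gene Psmb10 rose by 0.23 (edgeR adjusted p = 0.0447) and 0 fell, against 7.41% of all genes higher. Psmb10 was at 0.077 with the GC trend removed (adjusted p = 0.536), and it was called in 3 of 11 fits with 1 library left out, without transgenic 5, transgenic 6 or control 2. B2m (-0.20) and Psme1 (0.14) did not pass, and both changed sign with the GC trend removed, to 0.091 and -0.0086. In all the interferon lists apart from the members, 119 genes were tested, of which 5 rose, against 7.41% of all genes, and 7 fell, against 10.5%, so that the lists as a whole held no larger a share of calls than all genes, and 0 were called with the GC trend removed. Of the 7 that fell, 5 were GTPase genes, and Pias1 and Ptpn2 were the others. Of 14 leukocyte markers 2 had enough counts to test and 0 were called by edgeR or DESeq2, with 1 at an unadjusted p under 0.05, and their summed level was 3.99 to 6.62 CPM in transgenic and 5.19 to 8.51 CPM in control libraries. Their part in the level of the guanylate-binding genes was not tested.

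The authors' deposited tables list 5 of the 9 members. In the authors' deposited table of lower genes Gbp2 is at -0.86 (adjusted p = 0.00662), Gbp3 at -0.60 (0.0159), Gbp4 at -1.48 (0.0288) and Gbp7 at -0.75 (0.00425). The authors' deposited table of higher genes gives Ifi27 at 0.29 (adjusted p = 0.00094). Gbp3 is thus a call in the authors' deposited table and in DESeq2 but not in edgeR, with nearly the same fold change.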

How the data were processed

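Polyadenylated RNA was measured in 11 libraries of 50-base single-end reads. The authors deposited raw read counts per gene, and the submitters' processing notes name FastQC 0.11.5, STAR 2.5.2b, featureCounts, Subread 1.5.1 and build mm10, with the tools' roles and options not given in the sources used here. Tables of genes higher and lower were deposited by the authors as well, with a log2 fold change, an adjusted p-value and, per library, a signal of counts divided by a size factor. The kit does not mark strand, so overlapping genes on opposite strands, Irf7 with Phrf1 and Gbp2 with Mir6381, cannot be separated.

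Counts were tested with edgeR 4.0.16 in R 4.3.3 (filterByExpr, TMM, quasi-likelihood F test, no covariate, all 11 libraries), with Benjamini-Hochberg adjustment over all 17293 genes and a threshold of 0.05. CPM values used TMM-scaled library totals, and log2 CPM used a prior count of 2. Single genes were also tested by exact permutation of the libraries, and correlations by 100000 permutations. The GC trend was a lowess fit per library (span 0.3) with a value for 17246 tested genes. Alternatives were DESeq2 1.42.0 and its size factors, other filters, GC and length, a replicate block, Xist as covariate and leaving out each library. No library was a duplicate of another in its group: the chi-square of each pair divided by its degrees of freedom was 6.24 to 49.0. On simulated counts for 17293 genes, 73 of 98 genes changed by 0.75 (log2) and 97 of 97 changed by 1.5 were recovered, and 16 of 16939 unchanged genes were called. The simulation drew each gene independently, without a GC trend or differences in tissue make-up between libraries. These rates therefore need not hold for the measured counts.

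Named genes were the 9 members, in each other list every called gene and up to 3 with the smallest p, and the 3 most alike genes per member; some of these are not reported here. Cell marker lists were described by counts and summed levels, with single markers as examples. Nlrc5, H2-Q6 and the single endothelial markers were named after the library values had been seen. The members and lists were chosen with earlier results of these data known.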

Additional observations from a re-analysis of the deposited data

Results flagged for a closer look

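Gbp7 in transgenic 6 stood at 5.57 CPM, far from the next of the 6 transgenic libraries at 3.67 CPM. The gap was 0.700 of the whole range of the group, above Dixon's 95% critical value for 6 samples. Chance flags about 1 in 20 groups, and 38 groups were examined. Without transgenic 6 the log2 fold change of Gbp7 was -0.91 (edgeR adjusted p = 0.00301).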

How the results depend on the processing

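Of the 9 members 4 were called, and 0 with the GC trend or GC and length removed, and 0 to 5 with 1 library left out. The count was 0 without transgenic 2, transgenic 3 or control 5, and 1 without transgenic 1, transgenic 4, control 1 or control 4. The causes were not tested. The 12 calls of the other interferon genes became 6 with no filter, 0 with GC or GC and length removed, and 2 to 20 with 1 library left out. All genes called were 342 and 294 under those removals, and 1155 to 4712 with 1 library left out. Same-numbered libraries showed little shared deviation (correlations -0.185 to 0.197), and replicate 1 was the most alike pair. Other differences between libraries also enter these correlations, so they cannot decide whether the numbers pair the samples. With the number as a replicate block, 5 members, 23 other interferon genes and 4594 genes were called, and with the replicate block and the GC trend removed 2, 2 and 746. Of 36 member pairs 9 passed, and 3 when centred within genotype. Signs turned as follows. With GC removed, Isg15 was -0.023, Jak2 0.016, Pias1 0.018, Ptpn2 0.080, Gbp11 0.075, B2m 0.091 and Psme1 -0.0086. With GC and length removed, Isg15 was -0.068, Ifnar2 -0.014, Jak2 0.013, Pias1 0.030, Ptpn2 0.062, Irf2bp1 -0.015, Gbp11 0.054, B2m 0.039 and Psme1 -0.037. With the block Ifit1 was -0.17, and with Xist as covariate -0.059. With block and GC, Isg15 was -0.038, Ifnar2 -0.032, Jak2 0.031, Pias1 0.045, Ptpn2 0.13, Irf2bp1 -0.0074, B2m 0.074 and Psme1 -0.017. With 1 library left out, Gbp11 ran from -0.23 to 0.077 and Ifit1 from -0.18 to 0.18. Among the 9 members, depth limits Ifit1, Ifit3, Isg15 and Irf7 most, at 7 to 58 counts a library. Outside the members, the called gene Tgtp2 had fewer, at 2 to 36 counts a library.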
